A study of Arabidopsis thaliana with 4 samples.

Results

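The genes described here are the 84 Arabidopsis genes whose expression in roots was lowered to 25% or less by jasmonate both without and with cytokinin. They were found in a table of 33565 genes, of which 16525 had at least 5 FPKM (fragments normalised to exon length and to the mapped fragments of the library) in any library. After 0.1 was added to each FPKM, a member had a JA level at most 25% of the control level and a JA/cytokinin level at most 25% of the cytokinin level. The RNA was extracted from Col-0 (wild-type) roots grown for 7 days on solid 1/2 MS medium. The JA library came from medium with 10 μM methyl jasmonate (MeJA), and the control library from medium without hormone. The JA/cytokinin library came from medium with 10 μM MeJA and 50 nM BAP, a synthetic cytokinin, and the cytokinin library from medium with 50 nM BAP alone. Each of the 4 conditions had 1 library, so differences could not be checked against replicates or tested, and a gene was called changed when its ratio passed a fixed fold. All plants shared the same wild-type background, and the hormones were present through the 7 days of growth. In whole roots, fewer cells of a type and less RNA per cell cannot be told apart.

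Jasmonates are lipid-derived hormones of wounding and defence. Their perception leads to the breakdown of JAZ proteins, repressors that hold back transcription factors such as MYC2, and in roots they slow growth while raising the synthesis of defence compounds. Cytokinins are adenine-derived hormones that act through a phosphorelay to response regulators, restrain xylem formation and control the root meristem. The endodermis of the root seals itself with the lignin of the Casparian strip and then with suberin, a polyester of long-chain fatty acids, glycerol and ferulate, while flavonols are made from phenylalanine by way of chalcone.

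The deposited read counts were between 98605532 and 115141812 reads of 101 bases per library, and an estimated 85.8% to 90.8% of read pairs were mapped. At that depth 3 fragments on 1 kb of transcript, less a fragment length of 160 bases, corresponded to between 0.0723 and 0.0801 FPKM. The 95% intervals given below are Poisson intervals (exact) of the estimated fragments and take in counting error alone. The hormone and the tissue showed in marker genes. Of 12 JAZ genes, 10 were at least 2-fold higher in JA than in control and 9 were at least 2-fold higher in JA/cytokinin than in cytokinin, against 7.39% and 7.27% of all genes tested. Of 12 root markers, 11 had a unique match and all 11 passed 5 FPKM, led by PYK10, the myrosinase of root ER bodies, with 6257 FPKM in JA, 4563 in control, 5461 in JA/cytokinin and 5928 in cytokinin. The 13 markers of shoot organs and stomata stayed under 5 FPKM in every library. Their summed level was 0.660 FPKM in JA against 12.4 in control, and 1.95 in JA/cytokinin against 0.346 in cytokinin. Photosynthesis genes were also highest in control, and the 21 measured members of that list summed to 1364 FPKM in JA, 8177 in control, 89.9 in JA/cytokinin and 138 in cytokinin. The summed shoot markers were thus highest in the control library, and their part in the JA to control ratios below was not tested. Among them BASL was highest in JA/cytokinin, with 1.29 of the 1.95 FPKM there, against 0.251 in control and 0.0228 in cytokinin.

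JA lowered 466 genes to 25% or less without cytokinin, which is 2.82% of the genes tested, and 141 genes with cytokinin, which is 0.853%. The 84 genes in both are 0.508% of the genes tested, 18.0% of the first list and 59.6% of the other. In the opposite direction 268 genes, or 1.62%, were at least 4-fold higher in both. The rule fixed the direction of the 84 genes in both comparisons, so their JA ratios are given as a description. The median log2 ratio of JA over control was -3.20, against -0.01 over all genes tested, and that of JA/cytokinin over cytokinin was -2.55, against 0.03. The median level of the 84 genes was 1.19 FPKM in JA against 14.6 FPKM in control, and 2.45 FPKM in JA/cytokinin against 17.1 FPKM in cytokinin. Both JA libraries lay under both others in 79 of the 84 genes, and the 5 exceptions (TIP2;2, TIP2;3, FRO2, GUN4 and AT5G15180) were genes whose cytokinin level was below their JA level.

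**Figure D1:**
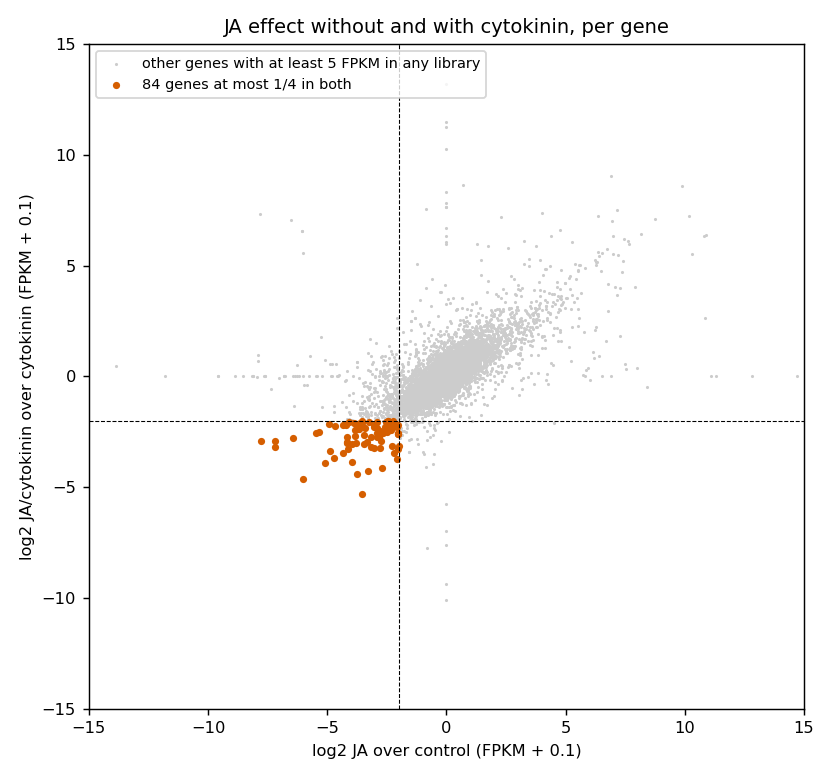
Log2 ratio of JA over control (x axis) and of JA/cytokinin over cytokinin (y axis) for the 16525 genes tested, 1 point per gene, with 0.1 added to each FPKM. The 84 genes in orange lie under the dashed lines at 25% by construction, and more of them reach far along the x axis than along the y axis.

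The genes were grouped by known role, and 60 of the 84 received one. These were 13 genes of the cell wall, 7 of lipid barriers, 6 of phenylpropanoid metabolism, 9 of transport and ion uptake, 7 regulators and signalling genes, 3 chloroplast genes and 15 of other metabolism or proteases, with 24 not assigned.

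Promoter sequences of 4 of the genes are shown because they stand for the groups below and hold the motifs that were counted. Each run has 250 bases before and 50 bases from the annotated gene start, read from the RefSeq TAIR10.1 genome on the strand of the gene. Capitals mark TATAAA on either strand, and in addition the G-box CACGTG in TT4, the G-box variant CACATG in AGP30 and AC elements in 4CL3. CYP86A1 stands for suberin and AGP30 for the cell wall, while TT4 and 4CL3 stand for the flavonoid pathway.
CYP86A1 (chr5:23768062-23768361, minus strand): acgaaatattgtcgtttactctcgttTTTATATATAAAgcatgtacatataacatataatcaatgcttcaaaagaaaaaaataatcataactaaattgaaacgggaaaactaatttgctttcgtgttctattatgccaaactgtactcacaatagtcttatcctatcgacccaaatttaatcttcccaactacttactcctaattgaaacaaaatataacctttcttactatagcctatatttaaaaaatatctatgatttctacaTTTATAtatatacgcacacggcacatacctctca
AGP30 (chr2:14295304-14295603, minus strand): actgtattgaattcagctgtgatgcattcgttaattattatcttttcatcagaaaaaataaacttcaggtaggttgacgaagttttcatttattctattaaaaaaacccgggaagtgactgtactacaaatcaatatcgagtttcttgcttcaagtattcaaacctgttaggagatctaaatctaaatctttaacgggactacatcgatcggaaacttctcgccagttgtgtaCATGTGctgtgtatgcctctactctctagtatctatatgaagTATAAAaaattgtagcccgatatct
TT4 (chr5:4488226-4488525, plus strand): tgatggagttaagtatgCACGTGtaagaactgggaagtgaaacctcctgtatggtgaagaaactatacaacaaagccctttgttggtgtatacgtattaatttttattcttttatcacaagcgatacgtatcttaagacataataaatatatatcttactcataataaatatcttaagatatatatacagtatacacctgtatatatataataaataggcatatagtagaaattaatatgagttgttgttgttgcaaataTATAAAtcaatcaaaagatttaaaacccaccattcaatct
4CL3 (chr1:24171586-24171885, minus strand): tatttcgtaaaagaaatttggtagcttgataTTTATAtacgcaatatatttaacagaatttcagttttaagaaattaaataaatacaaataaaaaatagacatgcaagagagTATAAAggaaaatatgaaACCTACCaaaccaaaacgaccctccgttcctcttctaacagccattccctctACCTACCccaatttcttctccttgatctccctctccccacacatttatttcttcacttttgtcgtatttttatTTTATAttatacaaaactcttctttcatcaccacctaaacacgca

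In TT4 the G-box began at position -233, and in 4CL3 a pair of ACCTACC elements began at -120 and -68, where the gene start is 0. Of the 82 protein-coding members with a promoter window, 5 held the G-box, the core site of MYC2 and other bHLH and bZIP factors, which is 6.10% against 7.68% of 27443 protein-coding genes. The 5 were TT4, UMAMIT20, GolS3, LHCB2.3 and AT5G11420. CACATG was found in 15 promoters (18.3% against 12.9% of all) and CACGTT in 9 (10.98% against 8.95%). The wider E-box CANNTG, which includes the G-box and CACATG, was found in 56 (68.3% against 61.7%). TATAAA was in 54 promoters (65.9% against 52.1%), and in 44 when only the bases before the gene start were searched (53.7% against 47.3%). The W-box, searched as TTGACC and TTGACT, was in 20 (24.4% against 32.4%), and the site II element TGGGCC in 5 (6.10% against 15.5%). The root hair element was in none of the 82, against 0.867% of all. AC elements, known from promoters of phenylpropanoid genes, were a search added after the values were seen, with the letters ACCTACC, or with a change in the middle ACCAACC, or near the end ACCTAAC. They were in 9 promoters (10.98% against 7.29%). All searches covered both strands, and a match describes the letters only.

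Genes of suberin and other lipid barriers were lower with JA in both backgrounds, and 5 of the 7 were at least 2-fold higher in cytokinin than in control, against 32.1% of the 84 genes and 3.1% of all genes tested. CYP86A1, a fatty acid ω-hydroxylase of root suberin, had 2.32 FPKM in JA against 30.3 in control, and 13.1 FPKM in JA/cytokinin against 61.8 in cytokinin. CYP86B1, which hydroxylates very-long-chain fatty acids for suberin, had 0.847 FPKM in JA against 10.8 in control, and 5.79 in JA/cytokinin against 25.3 in cytokinin. ABCG6, an ABC transporter of suberin formation, had 1.14 FPKM in JA against 16.9 in control, and 5.96 in JA/cytokinin against 26.4 in cytokinin. In these 3 genes the 4 libraries fell in the same order, with cytokinin the highest, then control, then JA/cytokinin, and JA the lowest. The log2 ratios of JA over control were -3.65, -3.53 and -3.78 for CYP86A1, CYP86B1 and ABCG6, and those of JA/cytokinin over cytokinin were -2.22, -2.11 and -2.13.

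The same order was seen in LACS2 and CER1. LACS2, a long-chain acyl-CoA synthetase known from cutin synthesis, had 1.98 FPKM in JA against 9.83 in control, and 4.89 in JA/cytokinin against 20.3 in cytokinin. CER1, which acts in the formation of wax alkanes, had 0.123 FPKM in JA against 4.3998 in control, and 2.48 in JA/cytokinin against 11.5 in cytokinin. A lipid-transfer-type protein, AT4G22460, had 1.85 FPKM in JA against 67.2 in control, and 2.46 in JA/cytokinin against 38.7 in cytokinin. The GDSL lipase AT5G45950 had 0.143 FPKM in JA against 2.76 in control, and 0.0845 in JA/cytokinin against 7.22 in cytokinin, and it had the lowest JA/cytokinin to cytokinin log2 ratio of the 84 genes (-5.31).

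The rest of the suberin list moved in the same direction. Of its 13 genes, 12 were measured and 10 had at least 5 FPKM in any library. CYP86A1, CYP86B1 and ABCG6 are 3 of the 10, and their ratios were fixed by the rule. All 7 others were at least 2-fold lower in JA than in control (against 8.32% of all genes tested), 4 of them at least 4-fold (against 2.82%), with a median log2 ratio of -2.05. In JA/cytokinin over cytokinin 6 of the 7 were at least 2-fold lower (against 5.38%) and 0 at least 4-fold (against 0.853%), with a median of -1.31. The list includes ASFT, the feruloyl transferase of suberin, with 22.5 FPKM in JA against 98.4 in control and 37.4 in JA/cytokinin against 133 in cytokinin. No gene of the Casparian strip list was among the 84, which are 0.508% of all genes tested. At that share a list of 9 can hold 0. Of its 9 measured genes, 7 were at least 2-fold lower in each comparison, against 8.32% and 5.38%. At least 4-fold lower were 5 without cytokinin (against 2.82%) and 0 with it (against 0.853%). MYB36 (log2 ratios of 0.08 and -0.79) and RBOHF (0.97 and 0.47) were within 2-fold.

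**Figure D2:**
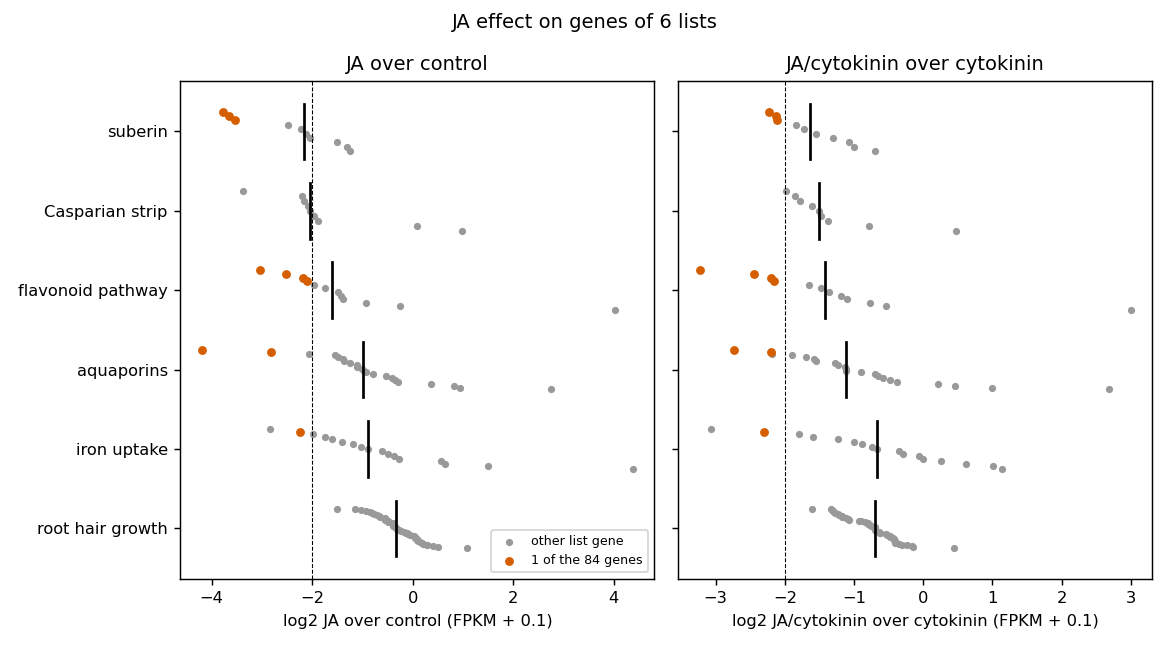
Log2 ratio of JA over control (left) and of JA/cytokinin over cytokinin (right) for the genes of 6 lists with at least 5 FPKM in any library, with 0.1 added to each FPKM. Orange points are among the 84 genes, black bars are list medians and the dashed line is 25%. The suberin medians, which take in 3 of the 84 genes, are -2.17 and -1.63, while the root hair medians are -0.32 and -0.70.

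Enzymes of the flavonoid pathway were lower by a like amount with and without cytokinin. TT4, chalcone synthase, which makes the flavonoid skeleton, was the most abundant of the 84 genes in every library. It had 172 FPKM in JA against 989 in control, and 256 in JA/cytokinin against 1388 in cytokinin. FLS1, flavonol synthase, had 47.0 FPKM in JA against 213 in control, and 78.0 in JA/cytokinin against 359 in cytokinin. TT7, flavonoid hydroxylase, had 2.15 FPKM in JA against 18.5 in control, and 3.37 in JA/cytokinin against 32.5 in cytokinin. 4CL3, a 4-coumarate:CoA ligase of flavonoid synthesis, had 6.21 FPKM in JA against 27.0 in control, and 13.6 in JA/cytokinin against 60.6 in cytokinin. In all 4 genes the cytokinin library was the highest and the JA library the lowest. The log2 ratios of JA over control and of JA/cytokinin over cytokinin were -2.52 and -2.44 for TT4, -2.18 and -2.20 for FLS1, -3.05 and -3.23 for TT7, and -2.10 and -2.15 for 4CL3.

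Hydroxycinnamate glucosyltransferases were lower as well. UGT84A1 had 0.812 FPKM in JA against 14.1 in control, and 2.21 in JA/cytokinin against 33.4 in cytokinin. UGT84A2, which glucosylates sinapate, had 6.32 FPKM in JA against 26.1 in control, and 3.06 in JA/cytokinin against 30.8 in cytokinin. A list of 16 pathway genes, added after the values were seen, had 12 genes with at least 5 FPKM in any library. TT4, TT7, FLS1 and 4CL3 are 4 of the 12. Of the 8 others, 5 were at least 2-fold lower in each comparison, against 8.32% and 5.38% of all genes tested, and UGT78D1, a flavonol glycosyltransferase, was higher, with 39.8 FPKM in JA against 2.37 in control and 38.6 in JA/cytokinin against 4.73 in cytokinin. TT3 and TT18, enzymes of the anthocyanin branch, had at most 0.148 FPKM in all 4 libraries.

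Cell wall genes made up 13 of the 84. AGP30, an arabinogalactan protein of roots, had 2.36 FPKM in JA (95% interval 1.93 to 2.85) against 159 in control, and 5.34 in JA/cytokinin against 134 in cytokinin. On FPKM as deposited it was 67.3-fold lower without cytokinin and 25.1-fold lower with it. The annotation word xyloglucan gave 3 of the 84 genes out of 34 tested (8.82%, against 0.508% of all genes tested). By annotation the 3 belong to the XTH enzymes, which cut and rejoin the xyloglucan that ties cellulose fibres. The 34 were matched by the word alone and may include genes with other functions. XTH31 had 20.02 FPKM in JA against 271 in control, and 14.1 in JA/cytokinin against 299.6 in cytokinin. XTH17 had 4.15 FPKM in JA against 107 in control, and 39.7 in JA/cytokinin against 188 in cytokinin. XTH33 had 0.418 FPKM in JA against 9.32 in control, and 3.02 in JA/cytokinin against 25.2 in cytokinin. Thus JA and JA/cytokinin differed little in XTH31, whereas XTH17 and XTH33 were higher in JA/cytokinin than in JA (log2 ratios of -0.51, 3.23 and 2.59). XTH17 aligned with XTH18 at 90.7% identity over its whole transcript, so reads of this pair may have been divided between them, and XTH18 was also lower (14.2 FPKM in JA against 90.0 in control, and 74.3 in JA/cytokinin against 178 in cytokinin). These 3 genes were chosen by the rule. Of the 31 others matched by the word, 3 were at least 4-fold lower in JA than in control (against 2.82% of all genes tested). In JA/cytokinin over cytokinin 1 was (against 0.853%). None of the 34 was at least 4-fold higher in either comparison, against 2.9% and 2.55% of all genes tested. The rule kept 3 of the 34 from being higher, and at such shares a set of 34 can hold few or 0.

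ELP, an extensin-like protein, had 123 FPKM in JA against 512 in control, and 103 in JA/cytokinin against 498 in cytokinin. AT4G08410, a proline-rich extensin-like gene, had 38.0 FPKM in JA against 153 in control, and 49.4 in JA/cytokinin against 298 in cytokinin. It aligned with AT4G08400 at 94.2% identity over 67.0% of its length, which makes its own level uncertain. AT5G66390, annotated as a peroxidase, had 37.4 FPKM in JA against 207 in control, and 41.0 in JA/cytokinin against 171 in cytokinin. The other peroxidase, AT5G15180, had 3.19 FPKM in JA against 42.0 in control, and 0.466 in JA/cytokinin against 2.84 in cytokinin, so that its cytokinin libraries lay under both others. LAC3, a laccase, had 15.3 FPKM in JA against 81.4 in control, and 17.8 in JA/cytokinin against 81.6 in cytokinin. The remaining cell wall members were EXLA2 (expansin-like), BGAL8 (beta-galactosidase), ATCSLB05 (cellulose synthase-like) and ATPMEPCRD (pectin methylesterase or its inhibitor), with log2 ratios of -3.47, -3.43, -3.15 and -3.03 for JA over control and -2.64, -2.31, -2.74 and -2.19 for JA/cytokinin over cytokinin. Root hair growth genes, many of which also encode wall proteins, held none of the 84, which are 0.508% of all genes tested. Of 44 root hair genes tested, 3 were at least 2-fold lower without cytokinin and 13 with it, against 8.32% and 5.38% of all genes tested. None was at least 4-fold lower in either, against 2.82% and 0.853%, shares at which a list of 44 can hold few or 0.

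**Figure D3:**
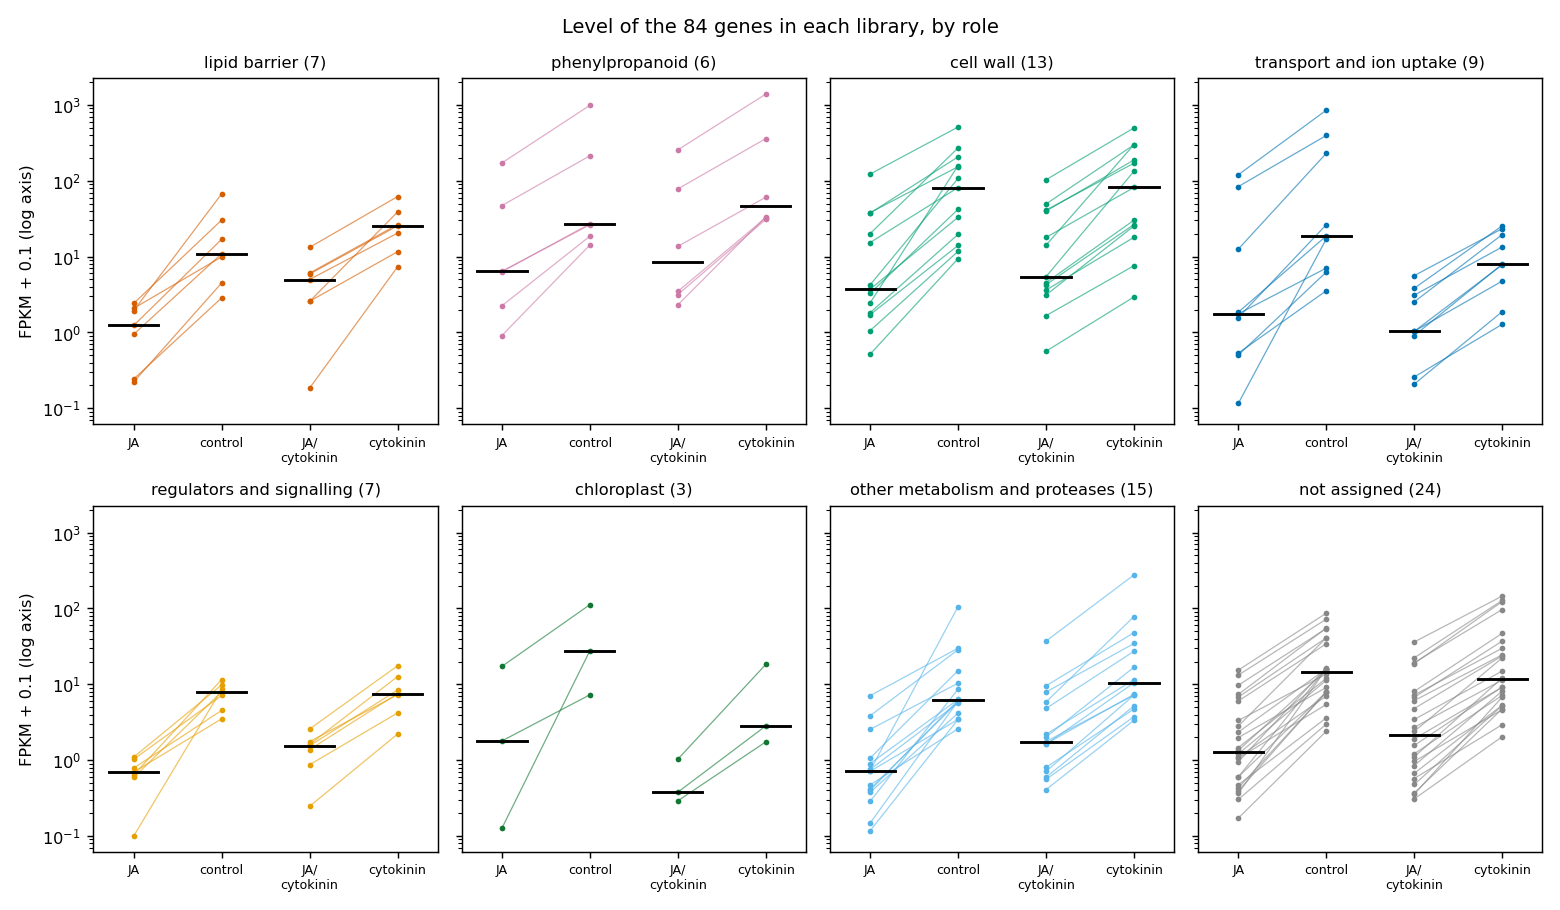
FPKM + 0.1 on a log axis for the 84 genes in the JA, control, JA/cytokinin and cytokinin libraries, by role, with the number of genes in parentheses. Each point is a gene in 1 library, thin lines join the JA library to its counterpart without JA, and black bars are medians. The medians of lipid barrier and phenylpropanoid genes are highest in cytokinin, whereas the highest transport genes and the chloroplast genes are highest in control.

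Genes of transport and ion uptake included those with the lowest cytokinin ratios. FRO2, the ferric chelate reductase of iron uptake at the root surface, had 83.9 FPKM in JA against 396 in control, and 0.159 in JA/cytokinin (95% interval 0.0965 to 0.247) against 1.18 in cytokinin (95% interval 0.988 to 1.40). The log2 ratio of cytokinin over control was -8.27, the lowest of the 84 genes. The aquaporin TIP2;2, of the vacuolar membrane, had 120 FPKM in JA against 853 in control, and 3.72 in JA/cytokinin against 25.4 in cytokinin. TIP2;3, of the same membrane, had 12.5 FPKM in JA against 230.3 in control, and 0.938 in JA/cytokinin against 4.66 in cytokinin. In these 3 genes both cytokinin libraries lay under both libraries without cytokinin, and JA was lower than its counterpart within each pair.

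Most other iron and water genes were outside the rule. Besides FRO2, 16 iron uptake genes were tested. In JA over control 7 were at least 2-fold lower (against 8.32% of all genes tested) and 2 at least 2-fold higher (against 7.39%). In JA/cytokinin over cytokinin 4 were at least 2-fold lower (against 5.38%) and 2 at least 2-fold higher (against 7.27%). IRT1, the iron transporter that works with FRO2, had 399.6 FPKM in JA against 906 in control, which is more than 25%, and 0.202 in JA/cytokinin against 2.42 in cytokinin. Besides TIP2;2 and TIP2;3, 20 aquaporins were tested. Of these, 9 were at least 2-fold lower without cytokinin and 10 with it, against the same 8.32% and 5.38%. In each comparison 1 was at least 4-fold lower, against 2.82% and 0.853%. PIP2;5 was the 1 of the 20 at least 2-fold higher in each comparison, with log2 ratios of 2.75 and 2.68. Nitrate and ammonium genes held none of the 84, which are 0.508% of all genes tested. Of 9 tested, 3 and 2 were at least 2-fold lower, against 8.32% and 5.38%, and 0 and 1 at least 2-fold higher, against 7.39% and 7.27%.

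The annotation word transporter gave 6 of the 84 genes out of 326 tested (1.84%, against 0.508% of all genes tested), namely ABCG6, ABCG23, UMAMIT17, UMAMIT20, BOR4 and ALMT12. UMAMIT17 and UMAMIT20, members of a family of amino acid and related transporters, are adjacent on chromosome 4 with 3752 bases between them. UMAMIT17 had 0.0164 FPKM in JA (95% interval 0.000470 to 0.0890, about 1 fragment) against 17.0 in control, and 0.108 in JA/cytokinin against 1.78 in cytokinin. UMAMIT20 had 1.48 FPKM in JA against 26.3 in control, and 5.51 in JA/cytokinin against 23.3 in cytokinin. The neighbours differed in the cytokinin library, where UMAMIT17 was lower than in control (log2 ratio -3.19) and UMAMIT20 near it (-0.17). ABCG23, an ABC transporter, had 0.405 FPKM in JA against 6.17 in control, and 3.005 in JA/cytokinin against 13.3 in cytokinin. ALMT12, an anion channel known from guard cells, had 0.435 FPKM in JA against 3.45 in control, and 0.934 in JA/cytokinin against 7.70 in cytokinin. CLC-B, a chloride channel family member, had 1.76 FPKM in JA against 18.7 in control, and 2.44 in JA/cytokinin against 19.4 in cytokinin. It overlaps a gene on the other strand by 362 bases.

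The group of regulators and signalling genes held 7 of the 84, and most had low levels. BNQ3, an atypical bHLH protein, was listed at 0 in JA against 8.49 FPKM in control, at least 68.4-fold lower when 3 fragments are taken as the floor of the JA library, and had 2.47 FPKM in JA/cytokinin against 17.4 in cytokinin. AGL42, a MADS-box factor, had 0.539 FPKM in JA against 11.5 in control, and 1.51 in JA/cytokinin against 12.6 in cytokinin. WRKY70, known from the balance of salicylate and jasmonate defence, had 0.998 FPKM in JA against 9.73 in control, and 0.146 in JA/cytokinin against 2.11 in cytokinin. These 3 transcription factors differed in the cytokinin library, which was higher than control for BNQ3 (log2 ratio 1.03), near control for AGL42 (0.13) and lower for WRKY70 (-2.15). By annotation 0 of 100 MYB genes, 1 of 81 bHLH genes (1.23%) and 1 of 48 WRKY genes (2.08%) were among the 84, against 0.508% of all genes tested. Counts this small do not set these families apart. The other members of this group were CLE5, a signalling peptide, PKS1, a phytochrome substrate, the lectin receptor kinase LECRKA4.2 and AT1G43040, of the auxin-responsive SAUR family, with log2 ratios of -3.75, -2.80, -2.33 and -2.53 for JA over control and -2.27, -2.45, -2.44 and -2.05 for JA/cytokinin over cytokinin.

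The 3 chloroplast genes were highest in control, the library with the highest sums of shoot markers and photosynthesis genes. LHCB2.3, a light-harvesting protein of photosystem II, had 0.0269 FPKM in JA (95% interval 0.00131 to 0.128, about 1 fragment) against 27.6 in control, and 0.278 in JA/cytokinin against 2.73 in cytokinin. NPQ4, the PsbS protein of energy dissipation, had 17.2 FPKM in JA against 112 in control, and 0.930 in JA/cytokinin against 18.2 in cytokinin. GUN4, a regulator of chlorophyll synthesis, had 1.70 FPKM in JA against 7.17 in control, and 0.191 in JA/cytokinin against 1.64 in cytokinin. All 21 photosynthesis genes of the list were at least 4-fold lower in JA than in control, against 2.82% of all genes tested. In JA/cytokinin over cytokinin 0 of 21 were, against 0.853%, and the list median was -0.54. NPQ4 and GUN4, which are not on that list, had log2 ratios of -4.15 and -2.58 in this pair, and LHCB2.3 one of -2.90. The rule required a 4-fold fall of these 3 genes in this pair, so the contrast with the list is a description. LHCB2.3 overlaps a gene on the other strand by 595 bases and GUN4 one by 946 bases, and whether reads were assigned by strand is not given in the sources used here.

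Among genes of other metabolism, several had under 1 FPKM in JA and more in JA/cytokinin. The papain-type protease AT4G11320 had 0.631 FPKM in JA (95% interval 0.486 to 0.805) against 106 in control, and 37.1 in JA/cytokinin against 278 in cytokinin. On FPKM as deposited it was 168-fold lower without cytokinin and 7.49-fold lower with it. AT1G77520, an O-methyltransferase family gene, had 0.0481 FPKM in JA against 5.92 in control, and 4.71 in JA/cytokinin against 27.2 in cytokinin. ICS2, an isochorismate synthase, had 0.187 FPKM in JA against 8.57 in control, and 7.81 in JA/cytokinin against 34.5 in cytokinin. AT1G78990, an acyltransferase family gene, had 0.0174 FPKM in JA (about 1 fragment) against 3.35 in control, and 0.609 in JA/cytokinin against 7.11 in cytokinin. In all 4 genes the JA library was far below the JA/cytokinin library.

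GolS3, a galactinol synthase known from cold responses, had 0.277 FPKM in JA against 4.07 in control, and 1.92 in JA/cytokinin against 16.7 in cytokinin. CYP716A2, the remaining cytochrome P450, had 0.318 FPKM in JA against 5.79 in control, and 1.52 in JA/cytokinin against 10.4 in cytokinin. Cytochromes P450 gave 4 of the 84 genes out of 117 tested (3.42%, against 0.508% of all genes tested). Of the 117, 21 were at least 4-fold higher in JA than in control, against 2.9% of all genes tested, and of the 113 outside the 84, 3 were at least 4-fold lower, against 2.82%. HSP70 (AT3G12580), a chaperone, had 7.00 FPKM in JA against 29.9 in control, and 5.75 in JA/cytokinin against 78.2 in cytokinin. IGMT2, an indole glucosinolate methyltransferase, had 3.76 FPKM in JA against 28.5 in control, and 9.46 in JA/cytokinin against 47.9 in cytokinin. Its transcript aligned with that of IGMT3 at 96.3% identity, with that of IGMT4 at 91.0% and with that of IGMT1 at 90.8%, so the levels of these genes are uncertain. IGMT1 was higher with JA, with 283 FPKM in JA against 84.8 in control, and 71.6 in JA/cytokinin against 26.9 in cytokinin. The cis-prenyltransferases cPT4 and cPT5 are neighbours on chromosome 5 on opposite strands and overlap by 148 bases, so their values are not separate evidence. They had 2.44 and 0.615 FPKM in JA against 10.3 and 3.35 in control, and 1.54 and 0.494 in JA/cytokinin against 7.29 and 5.10 in cytokinin.

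The 15 genes of this group had log2 ratios between -7.18 and -2.03 for JA over control and between -3.74 and -2.03 for JA/cytokinin over cytokinin. Among the 24 genes without an assigned role these ranges were -5.45 to -2.03 and -4.26 to -2.01, and in cytokinin over control 7 passed 2-fold upward and 5 passed it downward. AT5G11420, a DUF642 protein, had 0.265 FPKM in JA against 15.9 in control, and 7.97 in JA/cytokinin against 47.0 in cytokinin. AT5G03995, an uncharacterized protein, had 0.504 FPKM in JA against 15.9 in control, and 0.270 in JA/cytokinin against 4.64 in cytokinin. AT5G01740, of the NTF2 family, had 0.375 FPKM in JA against 3.51 in control, and 2.61 in JA/cytokinin against 11.3 in cytokinin. AT5G44574 and AT5G44575, both uncharacterized, are adjacent on chromosome 5 on the plus strand with 2318 bases between them, and AT5G44585 lies 3 genes further on. AT5G44574 had 0.854 FPKM in JA against 16.4 in control, and 0.749 in JA/cytokinin against 8.04 in cytokinin. AT5G44575 had 0.204 FPKM in JA against 2.89 in control, and 0.255 in JA/cytokinin against 6.68 in cytokinin. AT5G44585 had 2.72 FPKM in JA against 41.0 in control, and 3.34 in JA/cytokinin against 14.9 in cytokinin. The JA and JA/cytokinin libraries were close in these 3 neighbours, whereas the cytokinin library was below control in AT5G44574 and AT5G44585 and above it in AT5G44575. AT1G05562, an RNA gene, lies antisense to UGT75B1 over 2136 bases, so that without strand its reads cannot be told apart from those of UGT75B1.

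The cytokinin ratios of the 84 genes share their libraries with the rule and are likewise a description. In cytokinin over control, 27 of the 84 genes were at least 2-fold higher (32.1%, against 3.1% of all genes tested) and 14 at least 2-fold lower (16.7%, against 7.79%), with a median log2 ratio of 0.33 against 0.04. In JA/cytokinin over JA, 34 were at least 2-fold higher (40.5%, against 5.33%) and 9 at least 2-fold lower (10.7%, against 7.62%), with a median of 0.55 against 0.02. A high cytokinin level or a low JA level helps a gene to meet the rule, which bears on all of these counts. Both ratios were at least 2-fold higher in 23 genes, among them CYP86A1, CYP86B1, LACS2, CER1, 4CL3, UGT84A1, XTH33, EXLA2, BNQ3, ICS2 and AT4G11320. Both were at least 2-fold lower in 7 genes, namely FRO2, TIP2;2, TIP2;3, NPQ4, GUN4, WRKY70 and AT5G15180. Such joint counts were not made over all genes tested, so they do not set the 84 genes apart. Lipid barrier genes had the highest group medians, 1.04 for cytokinin over control and 2.29 for JA/cytokinin over JA, with 5 of 7 at least 2-fold higher in each. Genes of other metabolism or proteases came next with medians of 0.83 and 1.31, and 7 and 9 of the 15 were at least 2-fold higher. Phenylpropanoid genes had medians of 0.78 and 0.68, cell wall genes -0.04 and 0.29, transport genes -0.17 and 0.45 and regulators 0.13 and 1.15. Chloroplast genes had -2.62 and -2.63, and genes without an assigned role 0.27 and 0.26.

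**Figure D4:**
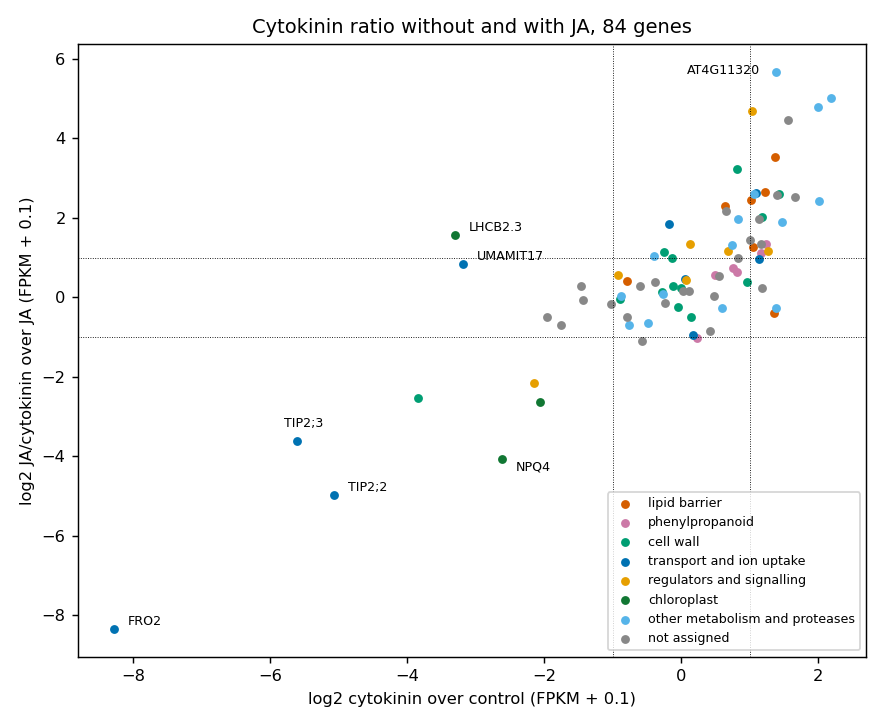
Log2 ratio of cytokinin over control (x axis) and of JA/cytokinin over JA (y axis) for the 84 genes, coloured by role, with 0.1 added to each FPKM and dotted lines at 2-fold. A group of 23 genes lies beyond 2-fold at the upper right and 7 genes, FRO2 the farthest, at the lower left, while LHCB2.3 is the 1 gene beyond 2-fold at the upper left.

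Most of the 84 genes were lower in JA/cytokinin than in control, a ratio that the rule bounded. In JA/cytokinin over control, 74 were at least 2-fold lower, against 9.48% of all genes tested, 10 were within 2-fold and 0 were at least 2-fold higher (against 8.38%), with a median of -2.43. The rule held JA/cytokinin to at most 25% of cytokinin, and the highest log2 ratio of cytokinin over control was 2.18. None of the 84 could therefore be 2-fold higher than control, and these counts are a description. The 10 within 2-fold were CYP86B1, LACS2, CER1, 4CL3, ICS2, AT1G77520, AT5G11420, AT4G24140, AT5G01740 and AT5G62420. ICS2 had the highest ratio (-0.13). The JA ratio was lower without cytokinin than with it in 61 genes, by at least 2-fold in 31, and lower with cytokinin in 23, by at least 2-fold in 6. The largest gap of the first kind was in LHCB2.3 (log2 -7.77 without and -2.90 with cytokinin), which rests on about 1 fragment in JA, and others were UMAMIT17 (-7.20 and -3.18), also at about 1 fragment, and AT4G11320 (-7.18 and -2.90). In the other direction it was in AT5G45950 (-3.56 and -5.31) and HSP70 (-2.08 and -3.74). The counts of 61 and 23 genes were not made over all genes tested. Of all genes tested, 2.82% were at least 4-fold lower without cytokinin and 0.853% with it. Both JA ratios entered the rule, so these counts do not set the 84 genes apart.

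Other genes were lowered by JA in 1 background only. The median log2 ratio of cytokinin over control was 0.33 for the 84 genes against -0.88 for the 382 genes lowered to 25% or less without cytokinin only, and 16.7% of the 84 were at least 2-fold lower in cytokinin against 49.7% of the 382. In JA/cytokinin over JA these medians were 0.55 for the 84 and 0.58 for the 382, with 40.5% against 40.1% at least 2-fold higher and 10.7% against 30.4% at least 2-fold lower. The median of cytokinin over control was 0.33 for the 84 against 0.28 for the 57 genes lowered with cytokinin only, and that of JA/cytokinin over JA was 0.55 for the 84 against -1.34 for the 57. These medians are a description, as the sets were chosen on the same libraries. The threshold also cut through a continuous range. Just inside it were BOR4 (log2 -2.003 without and -3.13 with cytokinin), AT4G23870 (-3.52 and -2.01) and AT4G08410 (-2.01 and -2.59). Just outside it were AT2G21100, a dirigent-like gene (-2.66 and -1.9999), AT4G25830 (-3.64 and -1.9998) and AGP17, an arabinogalactan protein (-3.26 and -1.99).

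The median level of the 84 genes without JA was 14.6 FPKM in control against 17.4 over all genes tested, and 17.1 FPKM in cytokinin against 16.7. Each of the 84 was highest in control (33 genes) or in cytokinin (51), so all passed the 5 FPKM filter through these libraries. Other genes could pass it through any library, and the medians are a description. Together the 84 genes took 0.0976% of the summed FPKM of the genes tested in JA against 0.663% in control, and 0.107% in JA/cytokinin against 0.665% in cytokinin. The rule fixed the direction of both differences. Of the 83 genes found in the annotation, 27 were on chromosome 5 (32.5%, against 23.5% of the genes tested) and 8 on chromosome 2 (9.64%, against 15.3%). Lists for other root cell types and processes held none of the 84, which are 0.508% of all genes tested. These lists were the stem cell niche (12 genes tested), epidermal cell fate (7), mitosis (10), xylem (9), phloem (6), root cap (3), phosphate starvation (10), auxin transport (14) and type-A response regulators (10). In them 0 genes were at least 4-fold lower in JA/cytokinin than in cytokinin, against 0.853% of all genes tested. In JA over control 4 were at least 4-fold lower, 3 of them response regulators, against 2.82%. At such shares lists this small can hold 0 genes, so they are not set apart by it. The root triterpene genes went the other way, with 7 of 8 at least 2-fold higher in JA than in control and 4 of 8 in JA/cytokinin than in cytokinin, against 7.39% and 7.27% of all genes tested.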

How the data were processed

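The authors made polyA-selected libraries from total RNA of Col-0 roots, sequenced them from both ends and deposited 1 FPKM value per TAIR10 gene and library, calculated by Cufflinks. The submitters' processing notes also name Bowtie, and versions and options are not given in the sources used here. The authors also deposited percent values per library, which their file does not name and which were not used, and a count of reads per library, from which depth was estimated with the step of low FPKM values of genes with 1 transcript, at a fragment length of 160 bases. Between 58.0% and 60.0% of low values lay within 0.1 of a whole fragment. FPKM as deposited was used, with 0.1 added before ratios, and a gene was called at 2-fold or 4-fold.

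The members and lists were chosen with earlier results of these data known, and roles were assigned after the values were seen. Text names the 12 members with the lowest mean JA log2 ratio, the 10 highest in control, the 5 highest and 5 lowest cytokinin ratios, members of lists and of families with at least 3 members, transcription factors, neighbours and the 3 genes on each side of the threshold. Other genes were chosen after their values were seen. Symbols were matched to TAIR10.1 gene tables, which held 28907 of the 33565 loci. Promoters came from the TAIR10.1 genome by locus. Protein features were not computed. Near-identical transcripts were aligned with blastn (BLAST+ 2.17.0). The scripts ran in Python 3.11.15 with pandas 2.3.3 and numpy 2.4.6, intervals with scipy 1.17.1 and plots with matplotlib 3.10.9. The rule was also run on simulated data, as a check of the script only. Without replicate libraries the variation between libraries was not known, so that run cannot show how reliable the genes found are. Alternatives were other pseudocounts, filters, folds and rescalings.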

Additional observations from a re-analysis of the deposited data

Results flagged for a closer look

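LHCB2.3 was the 1 gene of the 84 in which cytokinin changed the level by at least 2-fold in opposite directions without and with JA. The log2 ratio was -3.30 for cytokinin over control (2.73 FPKM in cytokinin against 27.6 in control) and 1.58 for JA/cytokinin over JA (0.278 FPKM in JA/cytokinin against 0.0269 in JA). With 1 library per condition the difference was not tested, and the JA value rests on about 1 fragment.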

How the results depend on the processing

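No paired analysis was possible because there was only 1 library in each condition. The count of 84 genes was 96 with no pseudocount among genes above 0 in all libraries, 94 after rescaling by the median ratio and 80 by a trimmed mean of log ratios. It was 38 with 1 added to each FPKM, 128 with a filter of at least 1 FPKM, 139 with no filter and 44 with at least 20 FPKM. It was 613 when the threshold was 2-fold and 16 when it was 8-fold. With the cytokinin library in place of control as the reference of JA, a setting added after seeing the data, 95 genes met the rule and 74 of them were among the 84. Under that setting the median cytokinin to control log2 ratio was 0.81 and the JA/cytokinin to control ratio -1.95. The JA/cytokinin to control ratio was -2.17 with 1 added, -2.07 with at least 20 FPKM, -1.31 at 2-fold and -4.00 at 8-fold. The cytokinin to control median, 0.33 over the 84 genes, was 0.074 with no filter, 0.13 with at least 1 FPKM, 0.14 by the trimmed mean, 0.16 with no pseudocount, 0.21 at 2-fold, 0.24 by the median ratio, 0.47 with 1 added and 0.65 with at least 20 FPKM. It changed sign at 8-fold, to -0.052 over the 16 genes left. The JA/cytokinin to JA median stayed between 0.34 and 0.86 under all alternatives, and the causes of these shifts were not tested. Of the 84 genes, 5 were at 3 or fewer fragments in JA, and placing them at that floor left the median JA to control log2 ratio at -3.20. For those with about 1 fragment the fold depends on counting error. In LHCB2.3 the control to JA ratio had a 95% interval of 216 to 21180. The planned protein features were not run, as no protein table was used here.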
